A study of Bos taurus with 12 samples.

Results

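Dexamethasone given together with clenbuterol was compared with no treatment in the biceps brachii of bulls (Bos taurus). Of the 12 arrays of the series, the 8 used for this contrast were chosen by their treatment label, 4 labelled dexamethasone+clenbuterol and 4 labelled as untreated control, and each array is a separate animal. The bulls were 18 to 20 months old. The feed of the treated animals held 0.66 mg dexamethasone per head during 21 days. It also held clenbuterol during 28 days, raised from 2 mg per head (week 1) through 4 mg (week 2) to 6 mg (weeks 3 and 4). The controls received neither drug. No array of clenbuterol alone is among the 12, so the contrast does not separate the drugs. The study had 8 animals in each of 3 groups, and the 4 hybridised per group were those with the best RNA, so they were not a random draw. How long before slaughter dosing ended was not among the sources used here. The contrast is described over 13681 genes, each through 1 probe of a 1-colour array with 21475 probes. In these bulk samples, fewer cells of a type and less RNA per cell cannot be told apart.

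Dexamethasone is a synthetic glucocorticoid. It binds the glucocorticoid receptor, which is held ready in the cytosol by HSP70 and HSP90 chaperones and, once bound, moves to the nucleus and switches genes on or off; in muscle, long exposure is known for protein loss. Clenbuterol is a beta-adrenergic agonist, which raises cyclic AMP and is known for muscle growth and fat loss in cattle. Chaperones fold new proteins and refold damaged ones: HSP70 proteins bind exposed chains with the help of J proteins and nucleotide exchange factors, HSP90 finishes receptors and kinases, and a separate set works in the endoplasmic reticulum (ER).

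All 10 markers of skeletal muscle fibres were measured, with array means of 6.79 to 7.64 in treated and 7.0 to 7.30 in control animals, as log2 signal relative to each array's 75th percentile, the scale of every level below. A level compares arrays for a given probe and does not compare probes. Between 57.2% and 68.7% of spots were well above background. Pairs of control arrays correlated at 0.9746 to 0.9838 over genes, pairs of treated arrays at 0.9625 to 0.9804, and control with treated arrays at 0.9613 to 0.9769. Per the file headers, control replicates 1 to 3 were scanned on day 1, control replicate 4 and treated replicates 1 to 3 on day 2, and treated replicate 4 on day 4. Negative-control spots had a mean signal of 9.1 to 12 on the 4 arrays of day 2 and of 4.13 to 5.19 on the other 4. Scan day thus runs along most of the contrast, and differences are also given within day 2 (treated replicates 1 to 3 against control replicate 4) and outside it (treated replicate 4 against control replicates 1 to 3). These sets share no array. By the barcodes in the file headers, control replicates 1 to 3 were on slide 1 and control replicate 4 on slide 2. Treated replicates 1 to 3 were on slide 3 and treated replicate 4 on slide 5. No slide held arrays of both groups, so slide and treatment cannot be told apart, also within day 2.

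Few single genes passed the test over the whole array. In the treated animals 2 genes were higher, the co-chaperone gene DNAJA1 and the uncharacterised LOC514874, and 4 were lower, namely EIF4B, LIPG, B3GNT8 and ARHGAP22. These 6 are 0.0439% of the 13681 genes tested (limma, Benjamini-Hochberg adjusted p under 0.05), and in all 6 the values of the groups did not overlap. Over all genes, 4.5% had every treated array above every control array and 3.72% had the reverse. Before adjustment, 954 genes (6.97%) had p under 0.05 and were higher and 704 (5.15%) were lower. The split depends on the scaling: with each array's median subtracted it was 645 higher and 975 lower, and the 5 genes then called were all lower, as were the 3 called after quantile normalization and the 4 called in the authors' table. Differences above 1 on the log2 scale were found for 291 genes and below -1 for 228, and the median over all genes was 0.03.

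DNAJA1 encodes a J protein that delivers unfolded chains to HSP70. Its level was 1.51, 1.59, 1.31 and 1.89 in the controls and 2.67, 3.54, 3.57 and 2.92 in the treated animals. It was thus 3.04-fold higher, with a log2 difference of 1.60 ± 0.24 (SE, n = 4 per group, limma adjusted p = 0.0482), 1.38 within scan day 2 and 1.45 outside it. LOC514874, described in the array files as similar to a signal peptide, CUB and EGF-like domain protein, stood at -5.61, -5.46, -5.69 and -5.31 in controls and at -4.38, -4.27, -4.32 and -4.55 after treatment (log2 difference 1.14 ± 0.17, limma adjusted p = 0.0482). Its probe was well above background on 3 control arrays and on all 4 treated arrays.

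EIF4B, a translation initiation factor that assists the helicase unwinding the start of messenger RNAs, had the largest fall of the 6. Control levels were -1.68, -1.47, -1.25 and -1.49, and treated levels -5.05, -6.02, -5.22 and -4.63. The log2 difference was -3.76 ± 0.50 (limma adjusted p = 0.0354), but the probe was well above background on only 1 treated array, so the size is uncertain. The other measured initiation factors did not share it: over the 39 measured members of that list the median difference was 0.00, with 20 above 0 and only EIF4B called.

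LIPG encodes endothelial lipase, an enzyme on vessel walls that cleaves phospholipids of high-density lipoprotein. It stood at -2.73, -2.67, -3.31 and -2.81 in controls and at -5.00, -5.42, -5.86 and -4.66 in treated animals, a log2 difference of -2.35 ± 0.32 (limma adjusted p = 0.0354), and its other probe gave -2.19. This probe too was well above background on only 1 treated array. The 17 measured lipase and lipid droplet genes as a list had a median of 0.17, with 13 above 0, which was 0.26 without control replicate 4 and 0.0056 without treated replicate 2.

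B3GNT8, a glycosyltransferase that extends sugar chains on glycoproteins, was above background on 3 control arrays and on no treated array. On this scale it was at least 2.23-fold lower after treatment, taking for each treated array the higher of the probe's own level and the lowest level of a probe well above background. That bound holds for the main signal only, since normexp background correction gave a smaller log2 difference of -0.68. The measured means were -3.84 in controls and -5.73 in treated animals (limma adjusted p = 0.0354). ARHGAP22, which switches off the small GTPase Rac, was measured on all 8 arrays, at -0.55, -0.60, -1.0 and -1.42 in controls and at -2.30, -2.72, -2.14 and -2.42 in treated animals (log2 difference -1.50 ± 0.21, limma adjusted p = 0.0354). Its other, dimmer probe gave -0.23.

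**Figure D1:**
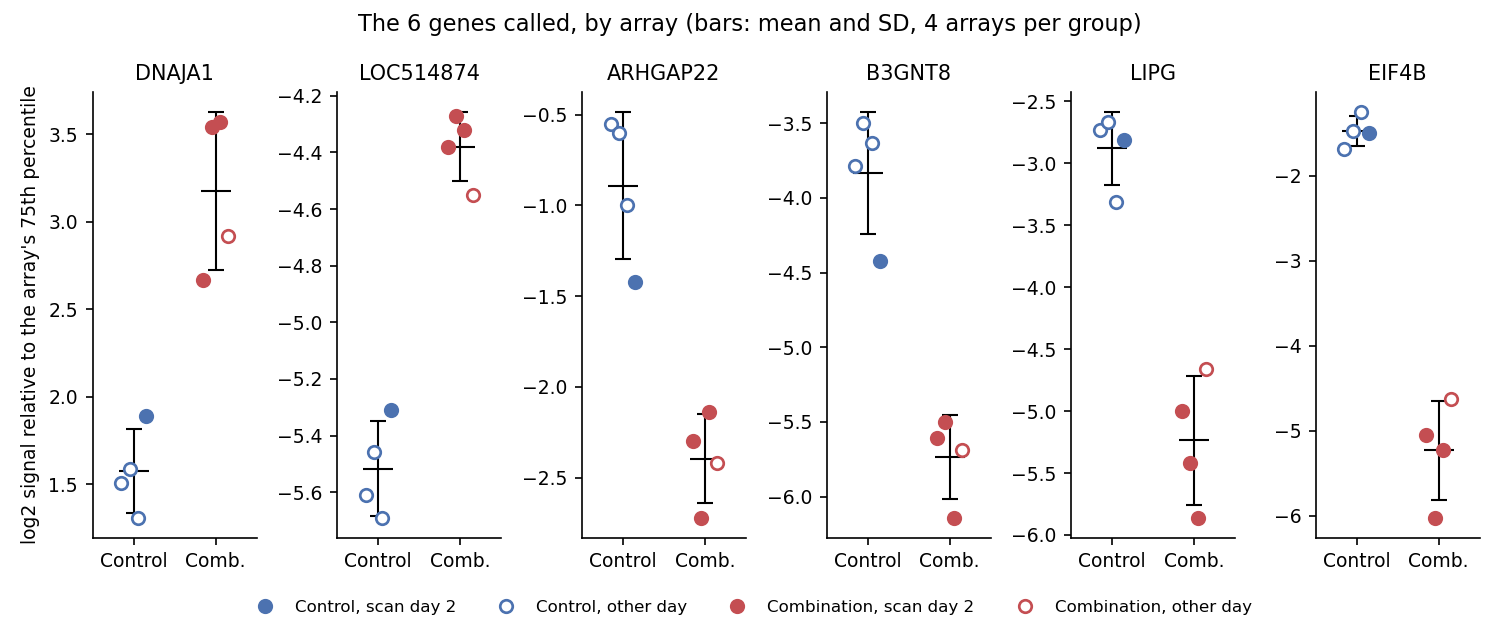
Level of each of the 6 called genes (log2 signal relative to the array's 75th percentile) on the 4 control and 4 treated arrays; bars are the mean and SD, filled points were scanned on day 2 and each panel has its own scale. In every panel the groups do not overlap. For ARHGAP22, B3GNT8, DNAJA1 and LOC514874 the control scanned on day 2 is the one nearest to the treated arrays (-1.42, -4.42, 1.89 and -5.31). For EIF4B and LIPG another control is nearest.

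These calls rest on few arrays. Leaving out any of the 8 arrays of the contrast except control replicate 4 left no gene called, and without that control 4 genes were called, 2 of them among the 6. No gene was called with scan day or slide in the fit either, although each of the 6 kept its direction under all settings that gave it a value. Slide entered as a random block, which does not separate it from treatment here. Sizes of the dim probes moved with the background correction: under normexp LIPG had -1.0 (limma adjusted p = 0.0795), B3GNT8 -0.68 (0.199), LOC514874 0.27 (0.783) and EIF4B -1.91 (0.00231). For ARHGAP22 the mean of its probes gave -0.87 (limma adjusted p = 0.185), and scan day as a fixed block -0.96 (0.448).

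Chaperone genes lay apart more often than the array as a whole. Of 126 measured chaperone and co-chaperone genes, 103 were higher in treated animals, the median log2 difference was 0.25 against 0.03 over all genes, and 28 (22.2%) had every treated array above every control array, where 4.5% of all genes did. The reverse held for 1 gene (0.794%, against 3.72%). Differences were above 0 in both sets of scan days for 75 of the 126, or 59.5%, against 27.2% of all genes. These 75 include the 28 without overlap, whose sign is the same in both sets by construction. DNAJA1 was the only member that passed the adjusted test, and the lists were chosen with results of these data known, so these counts are descriptions.

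The list of the HSP70 family and its nucleotide exchange factors had a median of 0.52 over 18 measured genes. HSPA1A, the classic stress-induced HSP70, stood at 6.15, 6.17, 6.07 and 7.15 in controls and at 7.58, 8.35, 8.68 and 8.45 in treated animals (log2 difference 1.88 ± 0.34, limma adjusted p = 0.123). The gene's remaining probes read 2.72 and 3.63, the second from a dim probe well above background on only 3 of the 8 arrays. Control replicate 4, scanned on the same day as 3 treated arrays, was the highest control, and the difference was 1.05 within day 2 and 2.32 outside it. HSPH1, a large HSP70 relative that exchanges nucleotide on HSP70, went from 3.04, 2.63, 3.14 and 3.46 in controls to 4.50, 5.32, 5.71 and 5.17 (log2 difference 2.10 ± 0.39, limma adjusted p = 0.123). HSPA6, an HSP70 known to be made mainly under strong stress, was not well above background on any control array and was so on all 4 treated arrays. Its levels were -6.22, -7.56, -8.11 and -6.22 against -4.46, -1.15, 1.74 and -0.69 (measured means -7.03 and -1.14, limma adjusted p = 0.142), with a wide spread among treated animals. By the kind of bound used for B3GNT8 it was at least 18.0-fold higher on this scale. That bound too holds for the main signal only, since normexp background correction gave a smaller log2 difference of 2.70.

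HSPA4L and HSPA4, also exchange factors of the HSP110 kind, had log2 differences of 2.42 ± 0.49 and 1.11 ± 0.25, and HSPA1L, a testis-enriched HSP70, of 1.65 ± 0.32. HSPA8, the HSP70 that cells make all the time, stood at 4.70, 4.79, 4.82 and 5.34 in controls and at 5.82, 5.84, 6.03 and 5.64 in treated animals (0.92 ± 0.19). None of these passed (limma adjusted p from 0.123 to 0.165), and in all of them the groups did not overlap. Of the 18 measured members of the list, 13 were above 0. On the higher side 7 had no overlap, against 4.5% of all genes, and 9 had an unadjusted p under 0.05, against 6.97%. The rest were small or negative, for example ST13 (-0.41), a co-chaperone of HSP70 and HSP90, and HSPA12A (-0.44). The mean of the list per array was -0.16 to 0.02 in controls and 0.56 to 1.15 in treated animals, and the list's mean difference was 0.92 within day 2 and 0.96 outside it. HSPA6, HSPA4L and HSPA4 were chosen after their values were seen. The median was 0.24 over the members well above background on all 12 arrays, which leaves out HSPA6, HSPA1L and HSPA4L. After normexp background correction it was 0.26, and these 3 dim genes then had 2.70, 0.32 and 0.86.

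The partners of HSP70 and HSP90 had smaller list medians, 0.14 over 17 J proteins and 0.23 over 20 genes of the HSP90 list. DNAJB1, the J protein induced with HSP70 on heat shock, was at 1.1, 0.52, 0.47 and 0.70 in controls and at 1.45, 2.65, 5.70 and 3.28 in treated animals (2.57 ± 0.81, limma adjusted p = 0.268). DNAJA4, another J protein, had 1.02 ± 0.37. STIP1, which bridges HSP70 and HSP90, was the uncalled gene of smallest p among the higher ones: 3.12, 3.0, 3.06 and 3.50 in controls and 4.17, 4.44, 4.54 and 4.05 in treated animals (1.13 ± 0.19, limma adjusted p = 0.101, and 0.0336 after normexp background correction). The HSP90 partners FKBP4, an immunophilin of steroid receptor complexes, and AHSA1, which stimulates the HSP90 ATPase, were 0.80 ± 0.16 and 0.59 ± 0.16 higher on the log2 scale without overlap. HSP90AA1, the inducible HSP90, had 0.78 ± 0.23, with treated replicate 1 (5.84) inside the range of the controls (5.69 to 5.87). Of 20 measured genes in the HSP90 list, 18 were above 0, with array means of 0.97 to 1.09 in controls and 1.26 to 1.51 in treated animals. DNAJB1, DNAJA4, FKBP4 and AHSA1 were chosen after their values were seen.

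Small heat shock proteins, which hold unfolded filament and Z-disc proteins in muscle, were above 0 for all 7 measured members, with a median of 0.62 (0.35 with scan day as a fixed block) and array means of 4.56 to 5.25 in controls and 5.47 to 5.83 in treated animals. HSPB6, a small heat shock protein that is a target of cyclic AMP-dependent kinase, stood at 3.35, 3.42, 3.51 and 3.40 in controls and at 4.05, 4.43, 4.39 and 4.11 in treated animals (0.83 ± 0.20, limma adjusted p = 0.182). HSPB7 had 1.77 ± 0.51 without overlap, and HSPB2 0.62 ± 0.20 with overlap. CRYAB, the chaperone of desmin, had 0.69 ± 0.23, and BAG3, which links small heat shock proteins to HSP70, had 1.0 ± 0.35, both with overlap. HSPB1, the small heat shock protein that binds actin filaments, had only 0.21 ± 0.16. The cytosolic chaperonin and prefoldin subunits, which fold actin and tubulin, had a median of 0.16 (12 of 14 above 0, and 0.10 with each array's median subtracted), and mitochondrial chaperones and proteases 0.07 (10 of 13), near all genes.

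**Figure D2:**
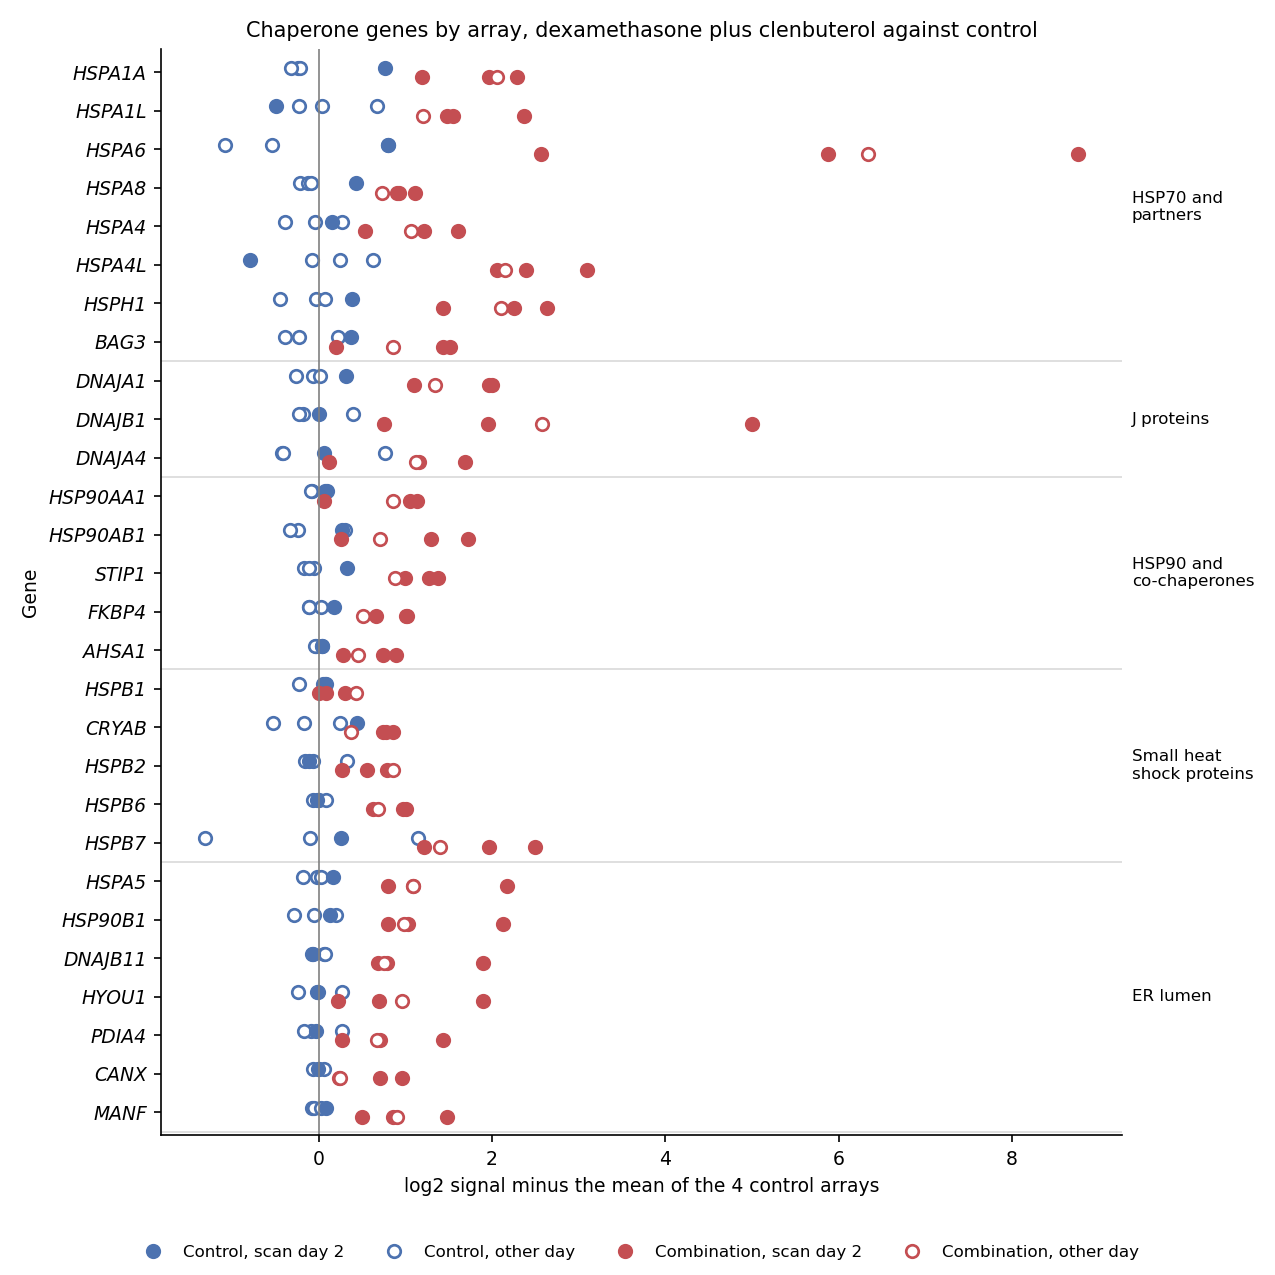
Chaperone genes on the 8 arrays, as log2 signal minus the mean of the 4 control arrays (blue control, red treated, filled points scanned on day 2). HSPA6 reaches furthest (treated levels -4.46 to 1.74 against -8.11 to -6.22), HSPB1 least (0.21), and treated replicate 1 is often the treated array nearest to the controls.

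Genes of the ER lumen differed alongside the cytosolic set. HSPA5 (BiP), the HSP70 of the ER, was at 3.61, 3.66, 3.45 and 3.80 in controls and at 4.72, 5.81, 4.43 and 4.72 in treated animals (1.29 ± 0.39, limma adjusted p = 0.258). HSP90B1, the HSP90 of the ER, had 1.24 ± 0.35, its J protein DNAJB11 1.03 ± 0.28, and MANF, a secreted ER stress factor, 0.94 ± 0.23. The disulphide isomerase PDIA4 (0.77 ± 0.27) and calnexin, CANX (0.54 ± 0.19), which holds unfinished glycoproteins, were smaller. In all 6 the groups did not overlap, treated replicate 2 was the highest array, and none passed the adjusted test. Of the 25 measured genes of the list, 21 were above 0. On the higher side 9 had no overlap, against 4.5% of all genes. The list's median was 0.49, and a fixed block for each scan day gave 0.26. In both scan-day sets 18 of the 25 were above 0, which include the 9 without overlap, and 0 were below, against 27.2% and 23.1% of all genes. Among the sensors and signal genes of the same list, ATF6 (-0.06) and EIF2AK3 (-0.07), which detect unfolded protein, were near 0, and DDIT3, the stress transcription factor CHOP, had 0.54. HSPA5, PDIA4 and CANX were chosen after their values were seen.

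Other genes known as targets of heat shock factors had a median of 0.21, with 9 of 12 above 0, 0.31 without control replicate 3 or without treated replicate 4, 0.31 with scan day as a fixed block and 0.14 with scan day 2 as a 2-level block. JMJD6, an oxygenase of the Jumonji family, was at -2.37, -2.46, -2.07 and -1.59 in controls and at -1.03, -0.50, -0.32 and -1.13 in treated animals (1.37 ± 0.26, limma adjusted p = 0.123). SLC5A3, the inositol transporter, had 1.53 ± 0.37 and SERPINH1, the collagen chaperone, 1.0 ± 0.32. TCP11L2 lay the other way, at -0.91 ± 0.26, the only chaperone-list gene whose treated arrays were all below the controls. SLC5A3, SERPINH1 and TCP11L2 were chosen after their values were seen.

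Genes of growth signals and of the making of proteins gave smaller list medians. In the insulin-like growth factor list, the median over 19 measured genes was 0.02, and 4 genes had no overlap on the higher side, where 4.5% of all genes had none. IGF1, the growth factor that muscle makes in response to loading, was at -4.03, -4.10, -2.61 and -2.97 in controls and at -2.35, -2.26, -2.34 and -2.19 in treated animals (1.14 ± 0.44, limma adjusted p = 0.35). The treated animals lay closer together than the controls. IGF2, the fetal growth factor, had 0.95 ± 0.38, with -0.10 from its other probe, IGF1R 1.0 ± 0.31 and INSR, the insulin receptor, 0.63 ± 0.30. For both receptors the gap was narrow, since the lowest treated array stood at -2.75 against a highest control of -2.76 for IGF1R and at -1.93 against -1.94 for INSR. The downstream genes IRS1 (-0.01) and PIK3CA (0.02) were near 0. MSTN, myostatin, the growth inhibitor, spread from -5.39 to -2.75 in controls and from -6.88 to -2.04 in treated animals (0.36 ± 0.95). IGF2, IGF1R and INSR were chosen after their values were seen.

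Amino acid enzymes included large single differences. ARG2, the mitochondrial arginase that makes ornithine, was at -1.80, -2.93, -1.18 and -1.87 in controls and at 1.33, 2.65, 1.81 and -0.67 in treated animals (3.23 ± 0.68, limma adjusted p = 0.149). Treated replicate 4 was the lowest treated array, and the difference was 3.80 within scan day 2 and 1.3 outside it. PHGDH and PSPH, the first and last enzymes of serine synthesis, had 1.05 ± 0.26 and 1.17 ± 0.29, each with no overlap, and PYCR1, the last step of proline synthesis, had 1.07 ± 0.20 (limma adjusted p = 0.123). The polyamine and one-carbon list had 15 of 20 above 0 and a median of 0.22, although ODC1, which turns ornithine into the first polyamine, had -0.23 ± 0.46. Among aminoacyl-tRNA synthetases, which charge tRNAs, 15 of 18 were above 0 (median 0.20, and 0.13 without treated replicate 1), led by WARS1 (0.96 ± 0.31) and SARS1 (0.72 ± 0.17). SLC43A2, a transporter of branched-chain amino acids, lay the other way. It was at 2.54, 2.75, 1.60 and 2.59 in controls and at 0.99, 0.63, 0.49 and -0.09 in treated animals (-1.87 ± 0.29, limma adjusted p = 0.0693). That adjusted p was 0.0326 with each array's median subtracted and 0.0333 after normexp background correction. Ribosomal proteins were near all genes, with medians of 0.01 over 42 large-subunit and 0.00 over 30 small-subunit genes, and these small medians changed sign under other scalings. ARG2, PHGDH, PSPH, SARS1 and WARS1 were chosen after their values were seen.

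Sterol synthesis genes, which make cholesterol, were above 0 for 17 of 23, with 5 free of overlap on the higher side and 8 with an unadjusted p under 0.05 (1 lower gene had it too), where 4.5% and 6.97% of all genes did. SREBF2, the transcription factor that switches the pathway on, was at 0.04, 0.21, 0.29 and 0.47 in controls and at 0.90, 1.23, 0.86 and 0.95 in treated animals (0.73 ± 0.19, limma adjusted p = 0.215). INSIG1, its feedback inhibitor, had 1.19 ± 0.40 and CYP51A1, the lanosterol demethylase, 1.48 ± 0.37, from a dim probe well above background on 1 control and 3 treated arrays, and 0.10 after normexp background correction. LSS, which forms lanosterol, had 1.69 ± 0.51, but 0.23 from its other probe. The list's mean per array was -0.60 to -0.36 in controls and -0.31 to 0.06 in treated animals, and its median of 0.20 was 0.10 after normexp background correction. These 4 genes were chosen after their values were seen.

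**Figure D3:**
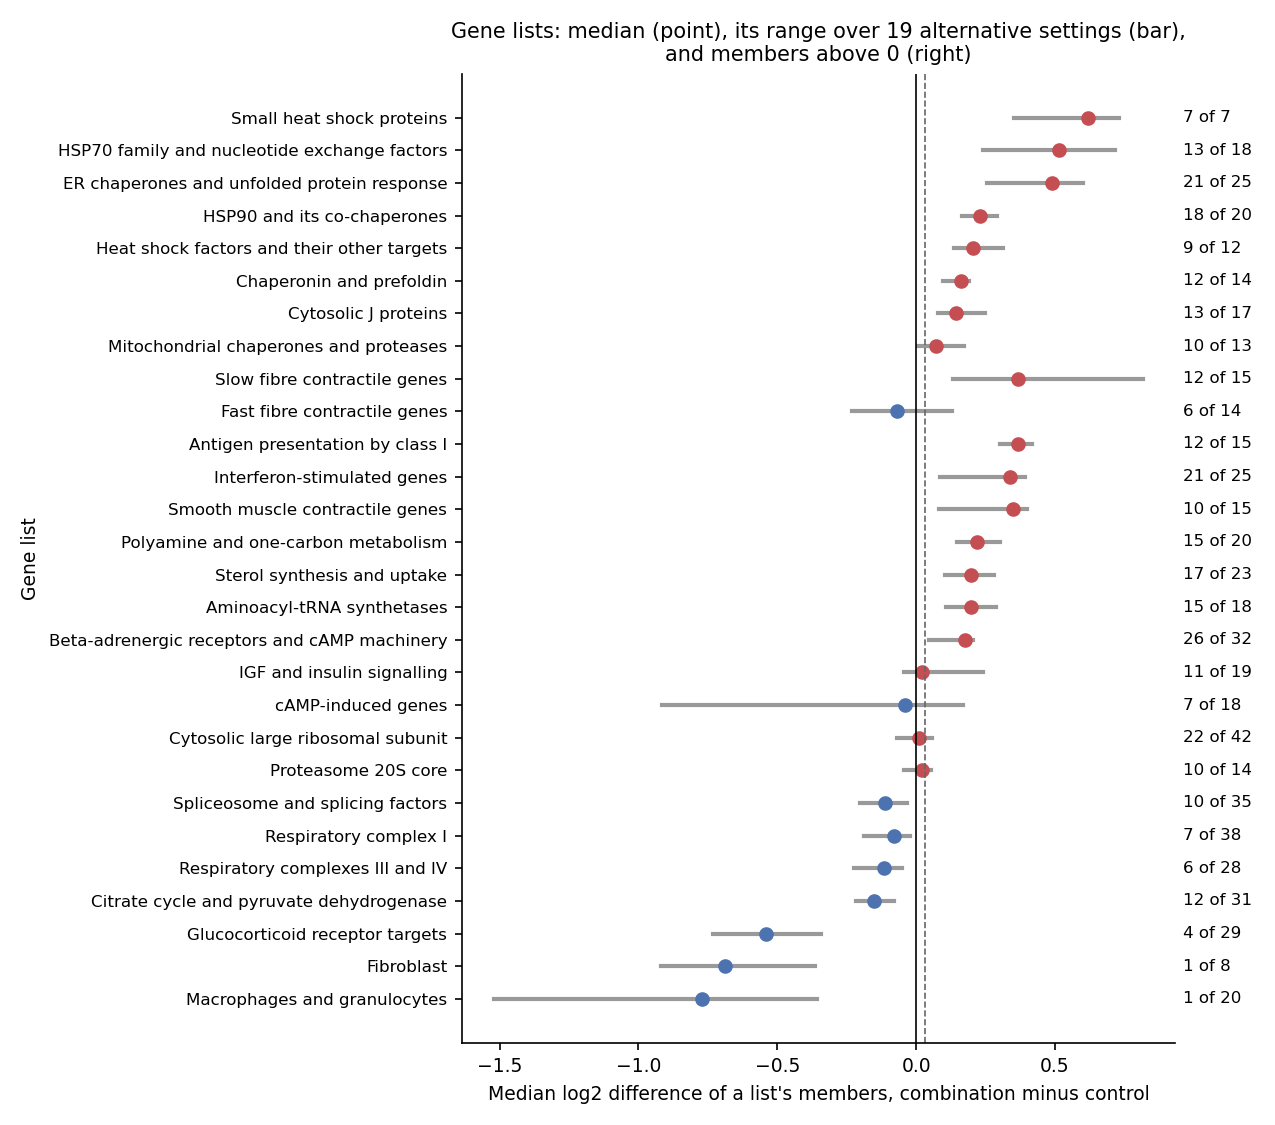
Median log2 difference of 28 gene lists (point), its lowest and highest value over 19 alternative settings (bar) and the members above 0 of those measured (right); the dashed line is the median over all genes, 0.03. Small heat shock proteins (0.62) and HSP70 (0.52) lie highest and macrophage genes (-0.77) lowest, and ribosomal, proteasome and growth factor lists cross 0.

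Macrophage genes lay lowest of all lists. Of 20 measured macrophage and granulocyte genes, 19 were lower in treated animals, with a median of -0.77 against 0.03 over all genes. On the lower side 6 had no overlap, against 3.72% of all genes, and 7 had an unadjusted p under 0.05, against 5.15%. None passed the adjusted test. CD163, the haemoglobin scavenger receptor of resident macrophages, was at 0.24, 0.79, 0.90 and 0.00 in controls and at -1.16, -1.93, -2.78 and -0.25 in treated animals (-2.01 ± 0.62, limma adjusted p = 0.258). CSF1R, the receptor macrophages need to survive, was at -0.04, 0.37, 0.69 and 0.00 in controls and at -1.68, -1.58, -1.83 and -0.47 (-1.65 ± 0.70). F13A1, a coagulation factor made by tissue macrophages, had -1.56 ± 0.44, and LYVE1, a hyaluronan receptor of tissue macrophages and lymphatic vessels, -1.47 ± 0.50.

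The 3 chains of complement C1q, which macrophages secrete, were lower together: C1QA by -1.33 ± 0.51, C1QB by -1.52 ± 0.60 and C1QC by -1.53 ± 0.59. For C1QC the groups overlapped, since treated replicate 4 (-0.38) lay above control replicate 4 (-0.48). Treated replicate 4 was the treated array nearest to the controls for all 7 of these genes. The list's mean per array was -2.75 to -2.04 in controls and -3.62 to -2.85 in treated animals, and its mean difference was -0.68 within scan day 2 and -0.60 outside it. Below 0 in both sets were 14 of the 20 genes, which include the 6 without overlap, and 0 were above in both. MRC1, another macrophage receptor, had 0.10, and TYROBP, an adaptor of myeloid cells, -0.08. The median was -0.36 after normexp background correction and -1.52 over the members well above background on all 12 arrays. The C1q genes were chosen after their values were seen.

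T, NK and B lymphocyte genes had a median of -0.16 over 12 measured of 28 listed, with 8 below 0. CD247, the T cell receptor zeta chain, was at -0.63, -1.05, -0.61 and -1.02 in controls and at -1.52, -1.48, -1.33 and -1.12 in treated animals (-0.54 ± 0.17, limma adjusted p = 0.266). CTSW, a protease of cytotoxic cells, had -1.0 ± 0.43 without overlap, and CD3E, another chain of the T cell receptor complex, -0.50 ± 0.31 with overlap. The list's median was -0.27 with scan day as a fixed block, -0.10 without control replicate 4, -0.09 without treated replicate 4 or with the mean of a gene's probes, -0.036 over probes well above background on all 12 arrays and -0.013 with no filter on dim probes.

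The leukocyte marker list joins lymphoid and myeloid genes, and its lowest members were CD163 and CSF1R, already given among the macrophage genes. Of 9 measured, 7 were below 0, with a median of -0.31 that was -0.86 over probes well above background on all 12 arrays and -0.11 without treated replicate 1. PTPRC, the marker of all white cells, had -0.31 with no overlap, CD2, a receptor of T and NK cells, 0.01, and CD79A, a chain of the B cell receptor, 0.48. CD68, a lysosomal protein of macrophages, had -0.12 ± 0.54 (limma adjusted p = 0.948), with 0.53 within scan day 2 and -1.0 outside it. Its probe was well above background on 3 control arrays and on 0 treated arrays, yet the highest of the 8 levels was that of treated replicate 3 (-4.78). No leukocyte marker was called.

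Interferon-related genes lay above 0. Of 25 measured interferon-stimulated genes, 21 were above 0 (median 0.34) and 18 were above 0 in both scan-day sets, against 27.2% of all genes. Only 2 had no overlap on the higher side and 2 had an unadjusted p under 0.05, against 4.5% and 6.97% of all genes. IRF1, a transcription factor induced by interferon, was at -1.12, -1.11, -1.04 and -0.74 in controls and at -0.45, -0.49, -0.48 and 0.48 in treated animals (0.77 ± 0.26, limma adjusted p = 0.287). IRF9, which binds DNA in the interferon-activated complex, had 0.46 ± 0.19 without overlap, and DHX58, a helicase of RNA sensing, 0.76 ± 0.35 with overlap. The DHX58 probe was well above background on 1 control and 3 treated arrays, and its lowest difference over the alternative settings was 0.13. Treated replicate 4 had the highest mean of the interferon list, -2.10 against -2.80 to -2.69 on the other treated arrays, and without it the median was 0.16. After normexp background correction it was 0.09, and with the 2-level scan block 0.21.

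Class I antigen presentation had 12 of 15 above 0 and a median of 0.37, but the array means overlapped, at 0.32 to 1.05 in controls and 0.46 to 1.44 in treated animals. The mean difference was 0.19, with -0.09 within scan day 2 and 0.67 outside it. Above 0 were the immunoproteasome subunits PSMB8 (0.76 ± 0.30, without overlap) and PSMB9 (0.68 ± 0.26) and BOLA, a bovine class I heavy chain (0.95 ± 0.27). Below 0 were PSMB10 (-0.35 ± 0.18), a further immunoproteasome subunit, ERAP2 (-0.39 ± 0.28), which trims peptides, and BOLA-NC1 (-2.44 ± 3.13), a non-classical class I gene well above background on 3 control and 2 treated arrays. Class I probes can read several near-identical genes, so the members behind the BOLA values are uncertain.

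Fibroblast markers were lower for 7 of 8 measured genes, with a median of -0.69. PDGFRA, the receptor that marks them, was at -0.02, 0.18, 0.25 and -0.28 in controls and at -0.92, -1.82, -1.32 and -0.47 in treated animals (-1.16 ± 0.28, limma adjusted p = 0.182), and its other probe gave -1.04. COL3A1, a fibrillar collagen, had -1.04 ± 0.51, with treated replicate 4 (3.42) inside the range of the controls (2.84 to 3.75). The list's mean per array was 2.14 to 2.50 in controls, 1.14, 1.91 and 1.54 in treated replicates 1 to 3 and 2.43 in treated replicate 4, and its mean difference was -0.62 within scan day 2 and 0.01 outside it. The median was -0.37 without treated replicate 1. OSR1, a transcription factor of connective tissue cells, had -2.59 ± 0.49 (limma adjusted p = 0.123), from 0.23, 0.83, -0.12 and -0.25 to -2.36, -2.85, -3.21 and -1.25. MFAP5, a protein of elastic microfibrils, had -0.82 ± 0.42 without overlap.

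Other matrix lists lay nearer to all genes. The 18 collagen genes had a median of -0.02, with 9 above 0. The 36 matrix proteins and proteoglycans had a median of -0.14, with 23 below 0, and their mean difference was -0.54 within scan day 2 and 0.45 outside it. PRELP, a small proteoglycan, had -1.02 ± 0.35 and MFAP2, another microfibril protein, -0.55 ± 0.24, the second without overlap. FBLN2, fibulin 2, had -1.34 ± 0.69, with treated replicate 4 at -4.94 and the other treated arrays at -1.84 to -1.18. Of 24 complement and coagulation genes, 14 were below 0 (median -0.13) and 3 had no overlap on the lower side, against 3.72% of all genes. These were F13A1, CFD, the protease complement factor D (-1.22 ± 0.37), and CD59, which shields cells from complement (-0.62 ± 0.18). That list's mean difference was -0.50 within scan day 2 and 0.27 outside it.

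Smooth muscle contractile genes had a median of 0.35, but treated replicate 4 carried much of it. The list's mean was 1.58 to 1.77 in controls, 1.66 to 1.86 in treated replicates 1 to 3 and 2.76 in treated replicate 4, and without that array the median was 0.08, against 0.19 without control replicate 1. MYL9, a smooth muscle myosin light chain, had 0.98 ± 0.33 and SMTN, smoothelin, 0.70 ± 0.22, both without overlap. ACTG2, a smooth muscle actin, was at -2.29, -1.97, -1.76 and 0.34 in treated animals against -2.71 to -2.40 in controls.

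The marker list of smooth muscle and pericytes had 5 of 8 above 0 and a median of 0.51, with 0 members free of overlap. That median was 0.25 without treated replicate 4 and 0.32 after normexp background correction. CNN1, calponin of smooth muscle, had 0.97 ± 0.41, NOTCH3, a receptor of mural cells, 0.64 ± 0.23 and ACTA2, the vascular smooth muscle actin, 0.56 ± 0.28, while the pericyte genes PDGFRB and RGS5 had -0.46 ± 0.25 and -0.05 ± 0.26. PLVAP, which forms the diaphragms of capillary pores, was at -1.71, -2.16, -2.26 and -2.02 in controls and at -0.65, -0.88, -1.32 and -0.56 in treated animals (1.19 ± 0.21, limma adjusted p = 0.123), in a list of 30 endothelial and vessel growth genes with a median of 0.20 (0.12 without control replicate 2, 0.06 with the 2-level scan block).

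Known targets of the glucocorticoid receptor lay below the controls in most cases. Of 29 measured targets, 25 were below 0, with a median of -0.54, 5 had no overlap on the lower side against 3.72% of all genes, and 1, BCL6, on the higher side (0.64 ± 0.30), against 4.5%. PDK4, which phosphorylates and inhibits pyruvate dehydrogenase, was at 4.24, 4.46, 4.54 and 5.26 in controls and at 3.67, 2.75, 2.75 and 3.69 in treated animals (-1.41 ± 0.35, limma adjusted p = 0.186). DDIT4, an inhibitor of the growth kinase mTOR, had -1.10 ± 0.51 and TIPARP, an ADP-ribosylating enzyme, -0.89 ± 0.36. CRISPLD2, a secreted protein, had -1.53 ± 0.33, but -0.14 from its other probe, and ZBTB16, a zinc finger repressor, -0.71 ± 0.20 with -0.06 from its other probe. TSC22D3, the glucocorticoid-induced leucine zipper, was above background on 3 control arrays and no treated array, at means of -5.29 and -6.13. BCL6, DDIT4, TIPARP and TSC22D3 were chosen after their values were seen.

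FKBP5, the receptor's feedback chaperone, differed among the treated animals themselves. It was at 3.35, 2.99, 3.80 and 4.16 in controls and at 4.66, 1.26, 2.31 and 3.26 in treated animals, so that treated replicate 1 was above every control and treated replicates 2 and 3 below all of them (-0.70 ± 0.58, limma adjusted p = 0.65). PER1, a clock gene, had -0.48 ± 0.41, KLF9 -0.56 ± 0.21, and NR3C1, the receptor itself, -0.48 ± 0.25. The targets' mean per array was 1.71 to 2.12 in controls and 1.17 to 1.66 in treated animals. Their mean difference was -0.79 within scan day 2 and -0.13 outside it, and the median was -0.34 without treated replicate 2.

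The beta-adrenergic side showed small differences in the signalling machinery and large, scattered ones among its targets. Of 32 measured genes of adrenergic receptors and cyclic AMP machinery, 26 were above 0, with a median of 0.17 that was 0.05 with scan day as a fixed block. GRK2, a kinase that desensitises G protein-coupled receptors, was the only one without overlap, at -0.15, -0.06, 0.31 and 0.42 in controls and at 0.68, 0.69, 0.54 and 0.61 in treated animals (0.50 ± 0.16, limma adjusted p = 0.27). Over all genes 4.5% had no overlap on the higher side, so 1 gene of 32 does not set the list apart. GRK2 was chosen after its values were seen.

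Genes that cyclic AMP is known to induce were split, with 7 of 18 above 0 and a median of -0.04 that was -0.91 with scan day as a fixed block. CREM, a cyclic AMP-responsive regulator, was at 4.61, 4.51, 4.91 and 5.20 in controls and at 3.07, 4.00, 3.32 and 3.88 in treated animals (-1.24 ± 0.28, limma adjusted p = 0.165). Its remaining probes had -0.98 and -0.38. PFKFB3, which makes the activator of glycolysis, was at 5.38, 5.72, 4.81 and 6.82 in controls and at 4.16, 1.36, 3.64 and 2.76 (-2.70 ± 0.59, limma adjusted p = 0.16). NR4A3, an orphan nuclear receptor induced by beta agonists in muscle, spread from -0.56 to 3.70 in controls and from -3.53 to 3.74 in treated animals (-2.32 ± 1.62). PPARGC1A, the coactivator of mitochondrial genes, had -1.68 ± 0.84. For both, treated replicate 4 lay among or above the controls and outside scan day 2 the differences were 2.11 and 0.34. CREM and PFKFB3 were chosen after their values were seen.

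Fibre and energy genes gave a mixed picture. Slow fibre contractile genes had a median of 0.37, with 12 of 15 above 0, led by ANKRD2, a stretch-responsive titin partner, at -0.08, -0.25, 0.88 and 0.64 in controls and 3.83, 3.42, 2.43 and 1.19 in treated animals (2.42 ± 0.60, limma adjusted p = 0.186). MYL6B, a slow myosin light chain, stood at 4.53, 4.57, 7.92 and 4.34 in controls, with replicate 3 at the level of the treated animals (6.58 to 8.39). MYOZ2, a Z-disc protein of slow fibres, had 1.90 ± 0.56. MYH7, the slow myosin heavy chain itself, had 0.11 ± 0.17, and MYH1, a fast one, -0.36 ± 0.36. The list's mean difference was 1.28 within scan day 2 and 0.16 outside it, and its median was 0.13 without control replicate 1, 0.19 without treated replicate 1, 0.21 without treated replicate 3, 0.62 without control replicate 3 and 0.65 without treated replicate 4. Fast fibre genes had a median of -0.07 over 14.

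Genes of the respiratory chain lay slightly lower. Of 38 measured complex I genes, 31 were below 0 (median -0.08), and of 28 genes of complexes III and IV, 22 were (median -0.11). The sizes were small, with medians from -0.19 to -0.02 for complex I over the alternative settings. No gene of either list was called by limma, and at an unadjusted p under 0.05 there were 0 in complex I and 3, all lower, in complexes III and IV. Over all genes 5.15% were lower at that threshold. In both scan-day sets 28 of the 38 complex I genes were below 0, against 23.1% of all genes, and 18 of the 28 genes of complexes III and IV were. On the lower side 1 gene of complex I and 5 of complexes III and IV had no overlap, against 3.72% of all genes. By construction these are within the counts of both scan-day sets. The array means of complex I overlapped: 4.89 to 5.19 in controls and 4.74 to 5.13 in treated animals. SUCLA2, a citrate cycle subunit, had -0.50 ± 0.20 with no overlap and its relative SUCLG2 -0.40 ± 0.19 with overlap, in a citrate cycle list of 31 with a median of -0.15, and that median was -0.08 without control replicate 3 and -0.09 without control replicate 4 or treated replicate 4. Spliceosome genes were below 0 for 25 of 35 (median -0.11).

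Proteasome genes were near all genes, and the ligase and calpain lists lay slightly above. The 19 atrophy ubiquitin ligases and partners had a median of 0.15, with 12 above 0 and 1 gene without overlap in each direction. The atrophy ubiquitin ligases FBXO32 and TRIM63 had -0.26 ± 0.37 and -0.06 ± 0.42, and in each the groups overlapped. The 20S proteasome core had a median of 0.02 over 14 genes and the 19S cap of 0.05 over 20, and both medians changed sign under some settings. Calpains, calcium-activated proteases, and their inhibitor had a median of 0.15 over 10 genes, with array means of 0.22 to 0.47 in controls and 0.49 to 0.57 in treated animals. That median was 0.089 with each array's median subtracted, 0.25 without control replicate 3 and 0.24 without treated replicate 1. CAPNS1, the small calpain subunit, had 0.60 ± 0.21 and CAPN7 -0.51 ± 0.20, both without overlap, and CAST, the inhibitor, 0.17 ± 0.19. TXNIP, an inhibitor of thioredoxin and of glucose uptake, was at 3.77, 4.04, 4.07 and 3.82 in controls and at 3.06, 2.13, 3.68 and 2.79 in treated animals (-1.01 ± 0.30, limma adjusted p = 0.256, chosen after its values were seen).

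Several genes outside these groups had small p-values without passing. On the higher side, PHLPP1, a phosphatase of the kinase AKT, was above background on no control array and on 3 treated arrays. On this scale it was at least 1.68-fold higher (measured means -6.35 and -4.56, limma adjusted p = 0.123), a bound that the normexp value below does not reach. ACAN, the cartilage proteoglycan aggrecan, had 1.68 ± 0.31 from a probe well above background on 1 control and 4 treated arrays, with -0.11 from its other probe and a limma adjusted p of 0.123 that was 0.0323 without control replicate 4. LEFTY2, a secreted inhibitor of Nodal, had 1.03 ± 0.19. On the lower side, GPCPD1, an enzyme of glycerophosphocholine breakdown, was at 5.46, 5.10, 5.31 and 5.32 in controls and at 3.82, 3.95, 3.69 and 4.70 in treated animals (-1.26 ± 0.24, limma adjusted p = 0.123). ANKRD13A, a ubiquitin-binding protein, had -1.13 ± 0.21 and SALL2, a zinc finger factor, -0.99 ± 0.21. After normexp background correction PHLPP1 had 0.35, ACAN 0.33, LEFTY2 0.095, ANKRD13A -0.65 and SALL2 -0.45.

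The scan-day sets were also compared over whole lists. Over all genes, the difference within day 2 and the difference outside it had the same sign for 50.3%. A gene whose groups do not overlap has the same sign in both sets by construction. The counts below are of whole lists and include such genes: 28 higher chaperone genes, 6 lower macrophage genes and 2 lower fibroblast markers. The shares of all genes include them too (4.5% higher and 3.72% lower). Below 0 in both sets were 14 of 20 macrophage genes and 5 of 8 fibroblast markers, against 23.1% of all genes, and above 0 in both were the 75 of 126 chaperone genes given above, against 27.2%. Among the heat shock factor targets, TCP11L2, whose groups do not overlap, was by construction below 0 in both sets (-1.39 and -0.60). HSF2, a heat shock factor, had 0.70 within day 2 and -0.50 outside it, and IER5 -0.37 and 2.64. NR4A3 also had opposite signs, at -3.13 and 2.11, as did CASQ2, the calcium store protein of slow and cardiac muscle, at 4.92 and -0.31. Within each set 1 side is a single array. A fixed block for each scan day leaves day 2 alone to estimate the difference, and limma then called 0 genes, with 1013 at an unadjusted p under 0.05. The part of scan day in these values was not tested beyond the fits with it as a block. HSF2, IER5 and CASQ2 were chosen after their values were seen.

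**Figure D4:**
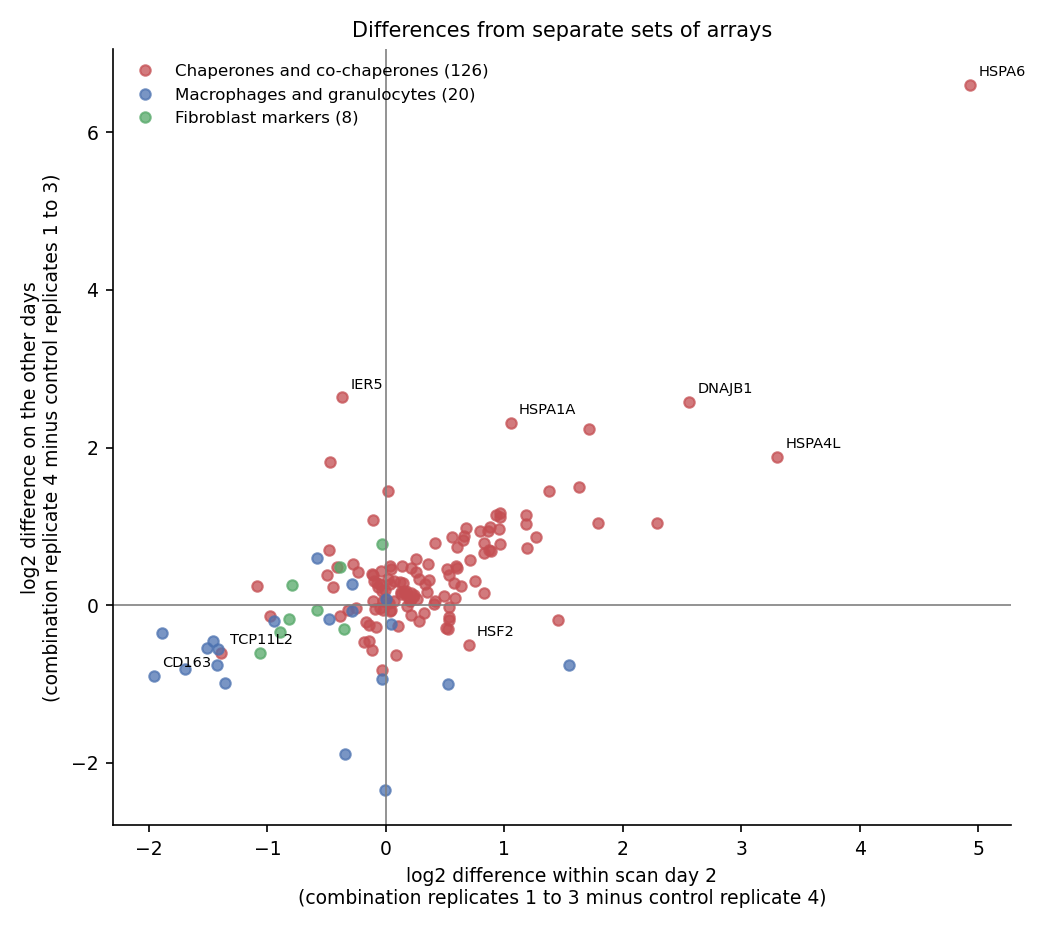
Log2 difference within scan day 2 (horizontal, treated replicates 1 to 3 minus control replicate 4) against the difference on the other days (vertical, treated replicate 4 minus control replicates 1 to 3) for every measured gene of the chaperone (126), macrophage (20) and fibroblast (8) lists. Of the chaperone genes 75 lie in the upper right, out to HSPA6 (4.93 and 6.60), and 14 macrophage genes lie in the lower left.

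Dexamethasone alone, at 0.75 mg per head for 42 days, was given to the third group, which shares these controls. Against them DNAJA1 differed by 0.74 with dexamethasone alone and by 1.60 with the combination, HSPA1A by 1.03 and 1.88, HSPA6 by 2.57 and 5.89, CD163 by -2.73 and -2.01, FKBP5 by -3.08 and -0.70, and CREM by -0.02 and -1.24. Some of the genes that were lower with the combination also passed with dexamethasone alone, a contrast in which 0.614% of all genes were called: LIPG differed by -3.15 (limma adjusted p = 0.00242), EIF4B by -2.52 (0.0469), B3GNT8 by -1.42 (0.0266) and SLC43A2 by -1.95 (0.0135), against -2.35, -3.76, -1.90 and -1.87 with the combination. With dexamethasone alone, larger falls than with the combination also passed for CRISPLD2 (-2.75, limma adjusted p = 0.0043), FKBP5 (-3.08, 0.0391), PER1 (-2.10, 0.0427) and KLF9 (-1.29, 0.0201). The same held for LYVE1 (-2.84, 0.0312), CTSW (-2.55, 0.026), CD3E (-1.74, 0.0312), MFAP2 (-1.29, 0.039) and SALL2 (-1.25, 0.0235). OSR1 passed with a like fall of -2.59 (0.0391). CD163, CSF1R, PDK4 and ARHGAP22 did not pass. Replicates 1 to 3 of dexamethasone alone were scanned on day 2 and replicate 4 on day 3. Scan day thus runs along most of the contrast of dexamethasone alone with control too, which was not fitted with scan day as a block. Set directly against each other, the treated groups differed in 0.0146% of the genes (limma adjusted p under 0.05). None of the genes named here was among them: for DNAJA1 the difference was 0.86 ± 0.24 (limma adjusted p = 0.225). The dose and length of dexamethasone differ between these groups as well as clenbuterol.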

How the data were processed

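Messenger RNA of biceps brachii was measured on 1-colour Agilent arrays, 4 per group. The deposited scanner files hold linear spot intensity from Agilent Feature Extraction 9.5.1.1, per the file headers, and the table the authors deposited holds intensity too. Log2 of the processed signal minus each array's 75th percentile was taken, outlier spots were dropped and a probe's spots averaged. The 14702 probes that stood well above background on 4 or more of 12 arrays were kept, and the brightest probe stood for a gene. Names were updated through a RefSeq table of ARS-UCD2.0: 10098 of 21475 probes matched by gene number, 3413 by accession, 297 by symbol, 86 by synonym and 2748 by the human match in the file, and 4833 kept the file's name. Of 9560 probes with a table name and a human match, 83.7% agreed.

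limma 3.58.1 in R 4.3.3 was fitted to all 12 arrays with 3 group means. P-values are two-sided, adjusted by Benjamini-Hochberg over 13681 genes, and adjusted p-values and SEs come from that fit unless an alternative is named. The fit was also run on simulated data drawn without scan-day or slide effects, so that run does not bear on either. With 4 animals a group, the number of arrays limits precision.

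The named genes are every called gene, the 10 rises and 10 falls of smallest p without overlap, 3 genes of each of the 8 highest and 8 lowest lists, and fixed genes; others are said to be chosen after their values were seen, or are list members given as examples. A fixed gene is not reported here. The members and the 78 lists were chosen with earlier results of these data known. Alternatives were other scalings, background correction, filters, the authors' table, scan day and slide as blocks, 8 arrays only, the mean of a gene's probes, and leaving out each array.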

Additional observations from a re-analysis of the deposited data

Results flagged for a closer look

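In 19 of 430 groups of 4 arrays (4.42%), for named genes and list means, the highest or lowest array stood apart from the others by Dixon's test. Chance gives about 1 in 20. Values are log2 signal relative to the array's 75th percentile.

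Among controls, replicate 4 was high for HSPA1A (7.15, others 6.07 to 6.17). Replicate 3 was high for MYL6B (7.92, others 4.34 to 4.57), C1QA (1.97, others 1.33 to 1.38), FBLN2 (-0.57, others -1.30 to -1.20) and the lipase and lipid droplet list (-1.01, others -1.30 to -1.27), and low for class II antigen presentation (-1.36, others -0.49 to -0.40). Replicate 2 was high for ACTA2 (2.56, others 2.14 to 2.17). Replicate 1 was low for CYP51A1 (-7.25, others -5.68 to -5.48), HSPB1 (8.15, others 8.42 to 8.46) and class I antigen presentation (0.32, others 0.94 to 1.05).

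Among treated animals, replicate 4 was high for ACTA2 (3.78, others 2.41 to 2.57), IRF1 (0.48, others -0.49 to -0.45), GBP4 (-0.66, others -3.54 to -3.06) and the interferon-stimulated list (-2.10, others -2.80 to -2.69), and low for the chaperonin list (2.66, others 2.75 to 2.76). Replicate 3 was low for CTSW (-5.21, others -4.16 to -4.07). Replicate 2 was high for DNAJB11 (2.57, others 1.36 to 1.46) and low for MSTN (-6.88, others -2.82 to -2.04). Replicate 1 was low for the sterol list (-0.31, others 0.02 to 0.06).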

How the results depend on the processing

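The count of called genes moved most with the settings. Against 6 (2 higher, 4 lower), limma called 3 after quantile normalization (0 higher), 5 with each array's median subtracted (0 higher), 4 in the authors' table (0 higher), 3 with only the 8 arrays of both groups (0 higher) and 2 with the mean of a gene's probes (0 higher, 2 lower). It called 0 (0 higher, 0 lower) with no filter on dim probes, with probes well above background on all 12 arrays, with scan day 2 as a 2-level block, with scan day as a fixed block and with slide as a random block, where 1668, 1329, 1094, 1013 and 1383 genes had an unadjusted p under 0.05, against 1658. Leaving out 1 array gave 0 to 4 called, 0 to 1 higher and 0 to 3 lower. The cause was not tested, except that a left-out array or a fixed block leaves fewer degrees of freedom.

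Of the list medians over their alternatives, 1411 stayed within 1 SD between arrays and 71 moved further. Of the named genes' values, 21 reversed, all of genes that were not called and whose groups overlapped. Scan day as a fixed block, which rests on day 2 alone, gave -0.37 for IER5, 0.53 for CD68 and -0.50 for CXCL10. The 2-level block gave 0.10 for FBXO32, 0.28 for TRIM63, 0.088 for ODC1 and 0.18 for NR4A1, and normexp background correction gave 0.0058 for NR4A1. Leaving out 1 array gave -0.63 to 0.025 for FBXO32, -0.37 to 0.22 for TRIM63, -0.17 to 1.44 for MSTN, -0.0052 to 0.19 for MYH7, -0.58 to 0.063 for ODC1, -0.35 to 0.24 for NR4A1 and -0.45 to 0.12 for CD68. The cause of these reversals was not tested.

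No paired analysis was possible because the labels give the animals no shared replicate numbers. What limits the dim genes is signal over background: of the 13681 genes, 11442 were well above background on all 8 arrays.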

Other observations

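Some further genes had no overlap between the groups. Over all genes this held for 4.5% on the higher and 3.72% on the lower side. It held for 1 gene in each direction among 17 of the purine and creatine list, 19 atrophy ligases and 13 myogenic regulators, and for 2 in each direction among 23 calcium and excitation genes, so these counts do not set those lists apart. None passed limma's adjusted threshold, and all were chosen after their values were seen. AMPD3, an AMP deaminase of the purine nucleotide cycle, was at -1.21, -0.93, -1.43 and -0.78 in controls and at 0.11, 1.08, 0.54 and -0.40 in treated animals (1.42 ± 0.31, limma adjusted p = 0.16), while AMPD1, the main deaminase of muscle, had 0.30 ± 0.21. SMURF1, a ubiquitin ligase of the BMP pathway, was at -5.20, -5.19, -4.69 and -4.89 in controls and at -4.03, -3.76, -3.70 and -3.67 in treated animals (1.20 ± 0.29, limma adjusted p = 0.182), from a probe well above background on 2 control and 4 treated arrays. Among 13 measured myogenic regulators (median 0.24, 9 above 0), CDH15, the cadherin of muscle precursor cells, was at 1.37, 1.31, 1.33 and 1.21 in controls and at 2.15, 2.37, 1.79 and 1.72 in treated animals (0.70 ± 0.17, limma adjusted p = 0.186). MYF6, a myogenic factor of mature fibres, had 1.26 ± 0.42, with control replicate 4 (3.54) inside the treated range of 3.33 to 4.47, and MEF2A, a partner of those factors, had -0.44 ± 0.15 with no overlap.

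In the calcium and excitation list (23 measured, median 0.13), CACNA1S, the voltage sensor of muscle, had 0.58 with no overlap and ATP1B1, a sodium pump subunit, had -1.13 with no overlap. The clock list had 6 of 18 above 0 and a median of -0.12.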
